A study of Mus musculus with 32 samples.

Results

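The last step of the 2i withdrawal course, from 72 to 84 h, was described from 4 of 32 libraries, chosen by their labels as the 2 libraries of the 2i 84 h group and the 2 libraries of the 2i 72 h group. The cells are E14, a mouse embryonic stem cell line. In the 2i course they were kept on gelatin in N2B27, a serum-free medium, with 2 small molecules, CHIR99021 at 3 µM against the kinase GSK3 and PD0325901 at 1 µM against the kinase MEK, and were then moved to N2B27 without inhibitors for 72 or 84 h. In the 2iL course LIF, a cytokine that holds stem cells in self-renewal, was present with the same inhibitors before the withdrawal. The step was compared with 2i 60 h and with 2iL 72, 84 and 96 h, levels are also given from earlier times of both courses, and all 32 libraries entered the fit. No label says whether the 2 libraries of a group came from separate cultures, and p-values therefore measure no more than the spread between these samples, which may be technical. In 4 other groups the 2 libraries differed most from each other, by a chi-square per degree of freedom between partners. It was 18.2 at 2iL 48 h, 11.3 at 2iL 84 h, 8.25 at 2iL 96 h and 7.27 at 2i 12 h. From each of these 4 pairs 1 library was taken to stand apart. The 4 were replicate 1 of 2iL 48 and 96 h and replicate 2 of 2iL 84 h and 2i 12 h. The chi-square has 1 value per pair, so it does not say which partner stands apart, and the choice within each pair was not tested. Below, the words stand apart are only a name for these 4 libraries. In the other groups it was 1.56 to 6.64, with 2.35 at 2i 72 h and 6.64, the next highest, at 2i 84 h. The 4 libraries taken to stand apart enter the fit through the shared spread, and results are also given without them.

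Without the inhibitors and without serum, mouse embryonic stem cells leave the naive state, pass through a state like that of the early epiblast and then become neural progenitors of the neuroepithelium. In these progenitors Notch signalling acts through the DNA-binding protein RBPJ to switch on repressors of the Hes family, which hold cells back from becoming neurons. Retinoic acid, made from vitamin A, gives neural cells a hindbrain and spinal cord identity through its nuclear receptors, the Hox genes and the enzymes that break it down. The cells lose E-cadherin and gain N-cadherin as the neuroepithelium forms.

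Between 72 and 84 h 10 genes rose and 8 fell at an adjusted p under 0.05, out of 11761 genes tested (edgeR's quasi-likelihood test, Benjamini-Hochberg adjustment over all tested genes). The genes that rose were the Notch target Hes5, the nuclear receptors Nr2f1 and Nr2f2, the retinoic acid genes Cyp26b1 and Crabp1, the guidance receptor Epha7, the kinase gene Jak2 with its neighbour Insl6, the imprinted gene Mest and the linker histone gene Hist1h1e. The genes that fell were the stem cell genes Dnmt3b, L1td1 and Fbxo15, the epithelial genes Cdh1 and Esrp1, and Arl4c, Gng3 and Rpp40. Called genes were 0.153% of all tested, 0.085% in the upward and 0.068% in the downward direction, so the step moved few genes past the threshold. These shares are the background for the counts of called list members below. The lists were chosen with earlier results of these data known. At an unadjusted p under 0.05, 369 genes were higher and 432 lower at 84 h.

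The upstream sequences of Hes5 and Epha7 are shown because each of them holds the letters GTGGGAA, the core motif bound by RBPJ, on either strand. Of the 18 genes that changed, 13 had an entry in the RefSeq promoter table (build GRCm38.p6), which covers 250 bases before to 50 bases after each gene's start. The motif stood in the windows of these 2 genes and in none of the other 11, against 6.38% of all 32851 windows. The Hes5 window held 2 copies, and 0.256% of windows held 2 or more. The printed 250 bases before the start are chr4:154960673-154960922 for Hes5 and chr4:28812881-28813130 for Epha7, both on the plus strand, and capitals mark the motif or its reverse complement.
Hes5: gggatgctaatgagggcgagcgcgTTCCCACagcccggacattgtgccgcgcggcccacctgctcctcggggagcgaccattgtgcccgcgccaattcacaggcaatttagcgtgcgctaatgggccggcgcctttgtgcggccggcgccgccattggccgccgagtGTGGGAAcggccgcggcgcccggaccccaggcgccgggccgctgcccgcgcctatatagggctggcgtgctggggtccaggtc
Epha7: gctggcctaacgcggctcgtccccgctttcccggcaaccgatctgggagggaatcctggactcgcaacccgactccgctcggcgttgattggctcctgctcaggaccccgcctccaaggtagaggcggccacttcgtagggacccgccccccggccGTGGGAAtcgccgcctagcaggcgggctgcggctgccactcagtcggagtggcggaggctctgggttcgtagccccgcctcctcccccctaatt
In Hes5 the copies began 226 and 83 bases before the start, and in Epha7 the copy began 94 bases before it. The nuclear receptor half-site AGGTCA, also searched on both strands, stood in 16.3% of all windows and in 0 of the 13. A match is a description of the letters and no evidence of binding.

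Notch signalling was represented among the called genes by 1 of its 19 tested members. Hes5 (chromosome 4, 154960923 to 154962371 in mm10, plus strand), a repressor that keeps progenitors from differentiating, stood at 75.4 and 79.6 CPM (counts per 1000000 counts, TMM-normalised) in the 72 h libraries and at 313 and 226 CPM in the 84 h libraries. It rose by 1.80 ± 0.29 (log2 ± SE, n = 2 against 2 libraries; edgeR adjusted p = 0.0029). Both libraries at 84 h were above both at 72 h, and at 60 h Hes5 had stood at 9.32 and 2.56 CPM. The other Hes genes tested did not pass: Hes1 was at 69.0 and 57.9 CPM at 72 h and at 57.7 and 45.9 CPM at 84 h. Hes3 went from 35.5 and 31.7 CPM to 28.5 and 30.4 CPM. Lfng, a glycosyltransferase that modifies Notch receptors, was at 72.2 and 62.6 CPM and then at 132 and 103 CPM (adjusted p = 0.594 in edgeR). The receptor gene Notch1 was at 26.6 and 30.9 CPM and then at 37.0 and 31 CPM. Over the 19 tested members, 8 had both 84 h libraries above both 72 h libraries and 4 had both below, where 20.6% and 21.4% of all tested genes did, and the median difference was 0.24 on the log2 scale against -0.002 over all genes.

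**Figure D1:**
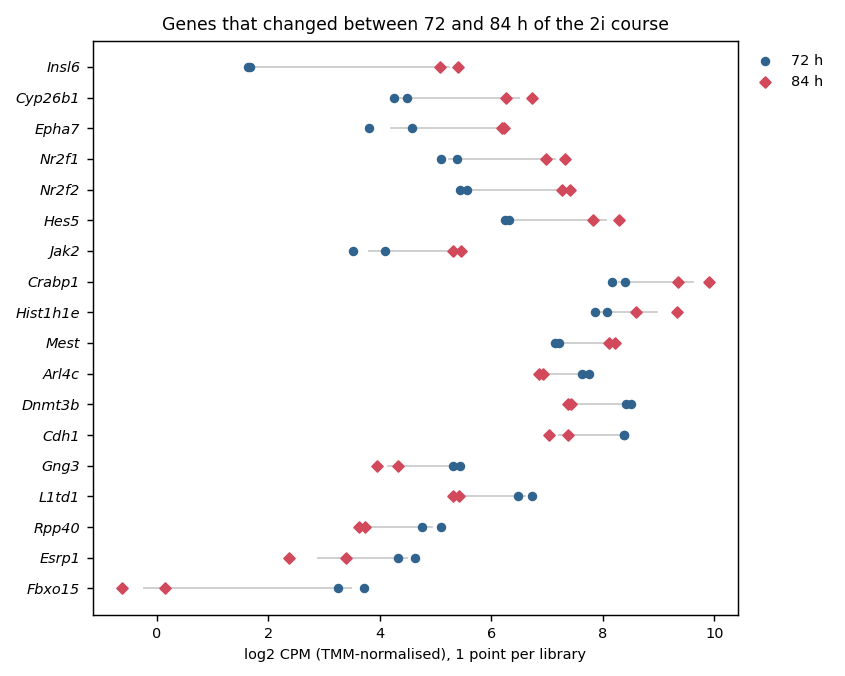
TMM-normalised log2 CPM of the 18 genes that changed, 1 point per library, with circles for 72 h, diamonds for 84 h and a line joining the group means. The 10 genes that rose are at the top. For each of the 18 genes the 2 groups do not overlap, but the genes were called on these same libraries. Of all tested genes 20.6% had both 84 h libraries higher and 21.4% both lower.

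Of the neural progenitor list, 3 of 23 tested members rose and 0 fell: Hes5 and the genes of the orphan nuclear receptors COUP-TFI and COUP-TFII. Nr2f1 (COUP-TFI; chromosome 13, 78188973 to 78199757, minus strand), a regulator of regional identity in the developing brain, stood at 34.2 and 41.7 CPM at 72 h and at 160 and 126 CPM at 84 h. Its rise was 1.91 ± 0.33 (log2 ± SE, edgeR adjusted p = 0.0051). Nr2f2 (COUP-TFII; chromosome 7, 70351944 to 70366735, minus strand), its close relative, went from 43.1 and 47.1 CPM to 170 and 154 CPM. That is a rise of 1.85 ± 0.35 (edgeR adjusted p = 0.0143). The 2 receptor genes thus moved by sizes that lie within 1 SE of each other. Among members that did not pass, Sox1, an early marker of neuroectoderm, was at 180 and 160 CPM at 72 h and at 194 and 223 CPM at 84 h. Sox2, shared by stem cells and neural progenitors, was at 178 and 195 CPM and then at 296 and 311 CPM (adjusted p = 0.177). Pax6 was at 29.8 and 27 CPM and then at 57.1 and 52.5 CPM, and Cdh2, which encodes N-cadherin, was at 47.5 and 46.4 CPM and then at 89.5 and 96.7 CPM (adjusted p = 0.429 and 0.149). Prom1, also on this list, went the other way, from 142 and 141 CPM to 90.8 and 83.5 CPM (edgeR adjusted p = 0.156). Over the list 14 members had both 84 h libraries above and 3 below, and the median was 0.53 on the log2 scale. Over all tested genes 20.6% were above and 21.4% below in that sense.

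The retinoic acid genes that rose were 2 of 9 tested of 16 listed. Cyp26b1 (chromosome 6, 84571414 to 84593908, minus strand), which encodes an enzyme that breaks retinoic acid down, stood at 19.0 and 22.4 CPM at 72 h and at 106 and 76.8 CPM at 84 h. This was a rise of 2.14 ± 0.43 (log2 ± SE, edgeR adjusted p = 0.0237). Crabp1 (chromosome 9, 54764748 to 54773110, plus strand), which encodes a cellular retinoic acid binding protein, went from 286 and 338 CPM to 953 and 655 CPM, a rise of 1.36 ± 0.26 (edgeR adjusted p = 0.0143). In both genes the libraries at 84 h stood apart from those at 72 h, though the 2 libraries at 84 h also differed from each other. Crabp2, a second binding protein gene, was at 24.1 and 32.5 CPM and then at 62.9 and 52.5 CPM (adjusted p = 0.504). The list's median was 0.37.

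Epha7 (chromosome 4, 28813131 to 28967499, plus strand), a receptor tyrosine kinase that reads ephrin signals between cells, was the 1 gene of 24 tested guidance and neural adhesion genes to rise, and none fell. It stood at 13.9 and 24.0 CPM at 72 h and at 72.7 and 75.2 CPM at 84 h, a rise of 1.98 ± 0.29 (edgeR adjusted p = 0.0011). The related receptor gene Epha4 was at 167 and 148 CPM and then at 228 and 221 CPM (adjusted p = 0.619). Within the list 13 genes had both libraries higher at 84 h and 2 had both lower, with a median of 0.46. Over all tested genes 20.6% were higher and 21.4% lower in that sense.

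Jak2 and Insl6 are neighbours on chromosome 19, on opposite strands with their ends facing each other and 8263 bases between them. Jak2 (29251828 to 29313080, plus strand) encodes a kinase that signals below cytokine receptors, and Insl6 (29321344 to 29325356, minus strand) encodes a peptide of the insulin and relaxin family. Insl6 stood at 3.17 and 3.09 CPM at 72 h and at 33.7 and 42.0 CPM at 84 h, a rise of 3.57 ± 0.54 (log2 ± SE, edgeR adjusted p = 0.0011). Jak2 went from 11.4 and 17.0 CPM to 39.6 and 43.7 CPM, a rise of 1.56 ± 0.34 (edgeR adjusted p = 0.0364). Insl6 had the highest fold among the genes that rose. It had been at 2.66 and 2.05 CPM at 60 h, so its level at 72 h was near the earlier one. Whether some reads counted for Insl6 came from Jak2 transcripts was not tested, so its fold is not shown to be independent of that of Jak2.

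Mest (chromosome 6, 30723547 to 30748465, plus strand), a gene expressed from the paternal copy, went from 141 and 149 CPM to 298 and 277 CPM, a rise of 0.99 ± 0.19 (edgeR adjusted p = 0.0143). Hist1h1e (chromosome 13, 23620629 to 23622558, minus strand), which encodes a linker histone, went from 232 and 270 CPM to 387 and 646 CPM, a rise of 1.05 ± 0.22 (edgeR adjusted p = 0.0298). The 2 libraries of Hist1h1e at 84 h lay far apart, and without 2i 84 h replicate 2 the difference was 0.62 (adjusted p = 0.933). It had stood at 430 and 327 CPM at 60 h, above its level at 72 h.

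Genes of the formative, general and naive pluripotency lists fell, 1 from each. Dnmt3b (chromosome 2, 153649450 to 153687730, plus strand), a DNA methyltransferase gene that marks the formative epiblast, stood at 343 and 365 CPM at 72 h and at 166 and 172 CPM at 84 h. It fell by 1.06 ± 0.21 on the log2 scale (edgeR adjusted p = 0.0184), the 1 of 16 formative epiblast genes to pass. L1td1 (chromosome 4, 98726734 to 98738480, plus strand), which encodes an RNA-binding protein of pluripotent cells, went from 89.3 and 106 CPM to 39.6 and 42.6 CPM. It fell by 1.24 ± 0.27 (edgeR adjusted p = 0.0364) and was the 1 of 14 general pluripotency genes to pass. Fbxo15, a target of the pluripotency factors, was the 1 of 20 naive genes to pass, with 32 counts over the 72 h libraries and 3 over the 84 h libraries (9.50, 13.1, 0.649 and 1.11 CPM). Its level was 12.4 times as high at 72 h, with a 95% counting interval (exact Clopper-Pearson) of 3.89 to 63.5 that covers counting error only (edgeR adjusted p = 0.0237).

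The other pluripotency genes did not pass, and most were already low. Pou5f1 was at 14.6 and 24.7 CPM at 72 h and at 13.6 and 2.76 CPM at 84 h, against 80.8 and 90.4 CPM before withdrawal. Nanog was at 20.9 and 25.5 CPM and then at 9.73 and 7.74 CPM (adjusted p = 0.141). Tdh, a threonine dehydrogenase gene active in naive cells, was at 12.0 and 11.6 CPM and then at 3.24 and 1.66 CPM (adjusted p = 0.143). Lin28a, an RNA-binding protein gene, was at 407 and 416 CPM and then at 318 in both libraries (adjusted p = 0.733). In the general pluripotency list 10 of 14 genes had both 84 h libraries below both 72 h libraries and 1, Sox2, had both above, with a median of -0.70. In the formative list the same counts were 10 and 2 of 16, with a median of -0.35. In the naive list they were 7 and 1 of 20, with a median of -0.15. Of all tested genes 21.4% had both libraries lower and 20.6% both higher. In bulk RNA fewer cells of a kind and less RNA per cell cannot be told apart.

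Among epithelial genes 2 of 19 fell and none rose. Cdh1 (chromosome 8, 106603351 to 106670246, plus strand), which encodes E-cadherin, stood at 334 and 333 CPM at 72 h and at 167 and 131 CPM at 84 h, and fell by 1.17 ± 0.24 (edgeR adjusted p = 0.0237). Esrp1 (chromosome 4, 11331933 to 11386783, minus strand), a regulator of epithelial splicing, went from 24.7 and 20.1 CPM to 5.19 and 10.5 CPM, and fell by 1.48 ± 0.31 (edgeR adjusted p = 0.0298). Epcam, an epithelial adhesion gene, was at 58.3 and 71.1 CPM and then at 37.0 and 40.3 CPM (adjusted p = 0.141). Tjp1, a tight junction gene, was at 60.2 and 63.4 CPM and then at 66.2 and 87.9 CPM. In this list 9 genes had both libraries lower and 1 had both higher, with a median of -0.32. The shares over all tested genes were 21.4% lower and 20.6% higher.

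Of the remaining genes that fell, Arl4c (chromosome 1, 88673125 to 88702221, minus strand), a small GTPase gene, went from 215 and 196 CPM to 121 and 116 CPM and fell by 0.79 ± 0.17 (edgeR adjusted p = 0.0389). Gng3 (chromosome 19, 8836933 to 8839194, minus strand), a G protein gamma subunit gene, went from 39.9 and 43.3 CPM to 20.1 and 15.5 CPM and fell by 1.23 ± 0.25 (edgeR adjusted p = 0.0237). Rpp40 (chromosome 13, 35893472 to 35906359, minus strand), an RNase P subunit gene, went from 34.2 and 27 CPM to 12.3 and 13.3 CPM and fell by 1.26 ± 0.27 (edgeR adjusted p = 0.0364). In edgeR with RLE factors in place of TMM, Arl4c and Rpp40 did not pass (adjusted p = 0.0770 and 0.0630).

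Several called genes overlap another annotated gene, and the strand used in counting is not given in the sources used here. Epha7 overlaps Gm11915, Nr2f1 overlaps A830082K12Rik, Mest overlaps Copg2 and Gm44296, Hist1h1e overlaps Hist1h2be, Dnmt3b overlaps Dnmt3bos, Gng3 overlaps Bscl2, Rpp40 overlaps Gm48746, Esrp1 overlaps Gm26663 and Fbxo15 overlaps Timm21. Hist1h1e and Hist1h2be are both on the minus strand, so strand would not separate their reads. The other overlaps are between opposite strands, and without strand the reads of such a pair cannot be told apart.

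**Figure D2:**
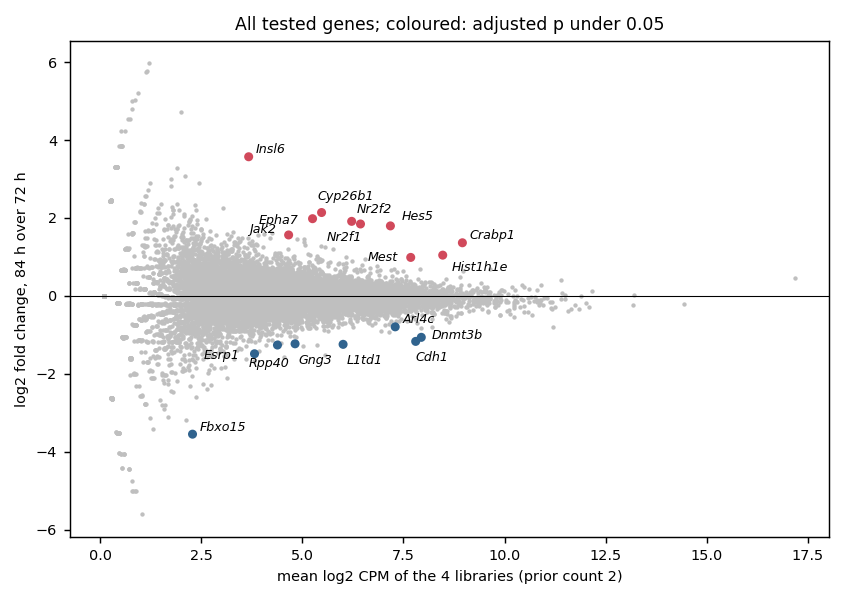
Log2 fold change from 72 to 84 h (84 h over 72 h) against the mean log2 CPM of the 4 libraries for the 11761 tested genes, with the 18 genes that passed coloured and named. Folds of genes with few counts scatter widely at the left, and Insl6 (3.57) and Fbxo15 are the called genes with the largest folds up and down.

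The number of calls differed between tools and fits. DESeq2 called 3 of the 18, Insl6, Epha7 and Hes5, and no others. With 1 library left out, between 0 and 6 genes passed. These were 0 genes without replicate 1 of 2i 72 h and 1 gene, Epha7, without its replicate 2. They were 3 genes without replicate 1 of 2i 84 h (Insl6, Epha7 and Hist1h1e) and 6 without its replicate 2 (Insl6, Epha7, Hes5, Nr2f1, Crabp1 and Esrp1). The fit of the 16 libraries of the 2i course alone called 48 genes up and 54 down, 0.438% and 0.493% of 10951 tested, and the fit without the 4 libraries that stand apart called 50 and 51, with all 18 genes among the calls of both. These fits shared 90 called genes.

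Some of the further genes that passed in the 2i course fit belong to the lists above, and the ones named here were chosen after their values were seen. Sox2 passed at 0.71 (adjusted p = 0.0029 in that edgeR fit), Cdh2 at 1.00 (0.0047), Crabp2 at 1.05 (0.0122), Lfng at 0.80 (0.0205), Irx3 at 0.65 (0.0241) and Egr2 at 0.85 (0.0393), all in log2 units and all higher at 84 h. Zeb1, which encodes a repressor of E-cadherin, was at 30.4 and 30.1 CPM at 72 h and at 55.8 and 60.8 CPM at 84 h. Rfx4, a transcription factor gene of the neural tube, was at 7.60 and 10.04 CPM and then at 26 and 27.1 CPM. Hoxb8 had 1 count over the 72 h libraries and 36 over the 84 h libraries, a ratio of 30.9 with a 95% counting interval of 5.2 to 1253. On the other side Nanog passed at -1.39 (0.0205), Tdh at -2.27 (0.0099), Tubb3, a neuronal tubulin gene, at -1.27 (0.0006), Epcam at -0.72 (0.0401) and Spry2, a feedback inhibitor of FGF signalling, at -0.70 (0.0188). Prom1, of the neural progenitor list, also passed with lower values at 84 h, at -0.69 (adjusted p = 0.0167 in that edgeR fit).

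Genes of hindbrain and spinal cord identity did not pass in the fit of all libraries, in either direction. Of 20 listed, 16 were tested, and 11 of the 16 had both 84 h libraries above both 72 h libraries while 0 had both below, against 20.6% and 21.4% of all tested genes, with a median of 1.00 on the log2 scale. Most were low: Hoxb1 was at 2.53 and 6.95 CPM at 72 h and at 10.4 and 13.8 CPM at 84 h. Hoxb2 was at 6.33 and 11.6 CPM and then at 27.3 and 16.6 CPM, and Hoxb9 was at 7.60 and 4.64 CPM and then at 11.7 and 12.7 CPM (adjusted p = 0.672 and 0.681). Egr2, a factor of the hindbrain segments, was at 48.1 and 52.5 CPM and then at 77.2 and 103 CPM (adjusted p = 0.491), after 4.44 and 6.65 CPM at 60 h. Meis2, a partner of Hox proteins, was at 252 and 214 CPM and then at 287 and 307 CPM. The floor for a count of 0, 3 counts, equals 1.70 to 2.51 CPM of the total counts in the 4 libraries, without TMM factors. Hoxa3, Hoxb4 and Hoxc4 began at or near that floor.

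No gene of the forebrain, midbrain, dorsal and ventral lists passed the test. Of 21 forebrain and eye field genes 5 passed the filter on low counts, 1 of them with both libraries higher and 2 with both lower. Otx2, a forebrain and midbrain factor, was at 10.1 and 14.7 CPM at 72 h and at 9.73 and 9.40 CPM at 84 h, after 107 and 106 CPM at 60 h. Of 12 midbrain genes 4 had both libraries higher and 2 lower, where 20.6% and 21.4% of all tested genes did. Their median was 0.64 on the log2 scale. Gbx2, which sets the hindbrain side of the isthmus, was at 41.8 and 34.8 CPM and then at 19.5 and 18.2 CPM (adjusted p = 0.293). Of 12 dorsal genes 5 were higher and 4 lower in that sense, among them Pax3 at 10.8 and 5.41 CPM and then 27.3 and 22.1 CPM (adjusted p = 0.355). Of 9 ventral genes 2 were higher and 4 lower.

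**Figure D3:**
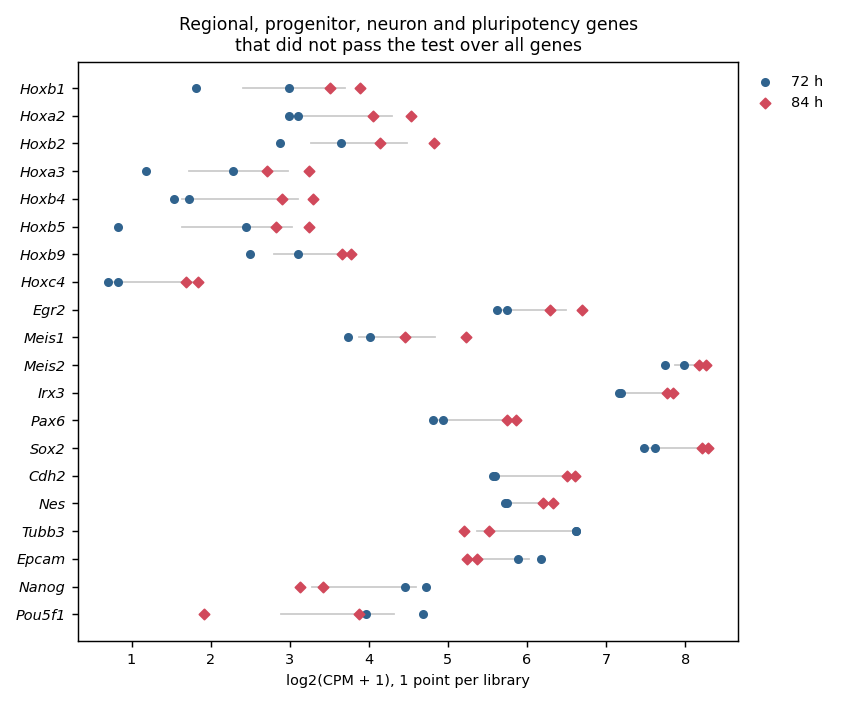
TMM-normalised log2 CPM in the 4 libraries for regional, progenitor, neuron and pluripotency genes that did not pass the test over all genes, with circles for 72 h, diamonds for 84 h and a line joining the group means. The genes were picked after their values were seen. The Hox genes sit at low levels with both 84 h points to the right, while Tubb3, Epcam and Nanog have both to the left.

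Neuronal genes did not pass in either direction. No proneural factor of 12 tested and no neuron structure gene of 23 tested passed. Of the proneural factors 5 had both 84 h libraries higher and 2 had both lower, with a median of 0.07. Of the neuron structure genes 6 had both libraries higher and 8 had both lower, with a median of -0.18. Over all tested genes 20.6% were higher and 21.4% lower in that sense. Tubb3 was at 97.5 and 97.4 CPM at 72 h and at 44.8 and 35.9 CPM at 84 h (adjusted p = 0.141). Stmn2 was at 286 and 230 CPM and then at 226 and 268 CPM, and Tubb2b at 491 and 542 CPM and then at 565 and 476 CPM, with overlapping groups in both. Among proneural genes Sox11, a factor of immature neurons, was at 1264 and 1215 CPM and then at 1529 and 1499 CPM (adjusted p = 0.784), and Neurog1, Neurog3 and Neurod4 had no count in the 4 libraries, which allows up to 3 counts in each.

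**Figure D4:**
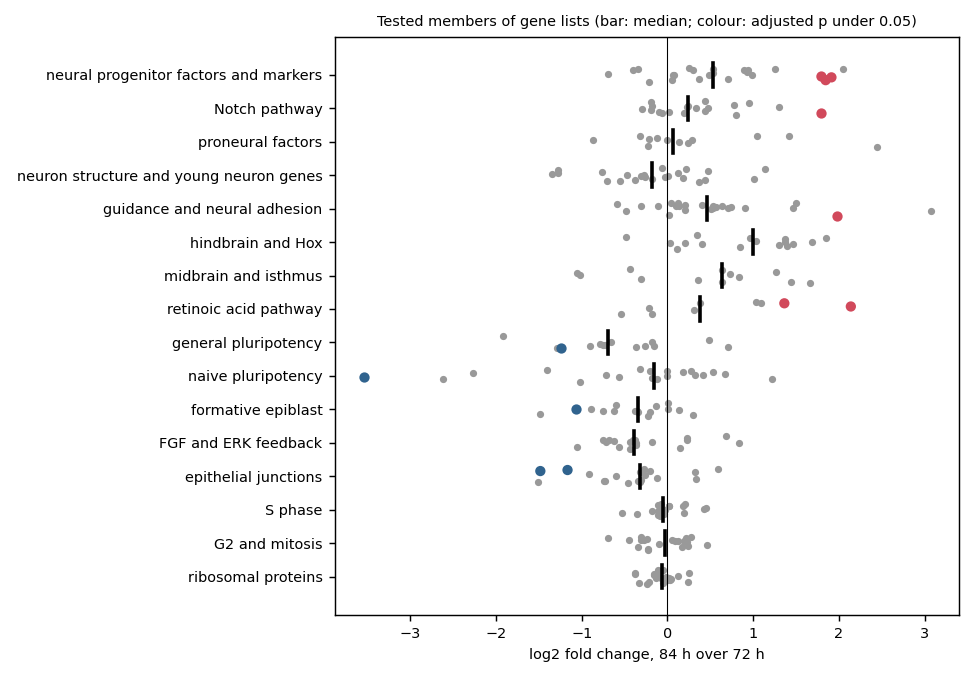
Log2 fold change from 72 to 84 h of every tested member of 16 gene lists, 1 point per gene, with a bar at the list's median and colour for members with an adjusted p under 0.05. The medians of the hindbrain and Hox list (1.00), the midbrain and isthmus list (0.64) and the neural progenitor list (0.53) lie farthest to the right. That of general pluripotency (-0.70) lies to the left, while ribosomal protein and cell cycle genes lie near 0.

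No member of the FGF and ERK, Wnt, BMP and TGF-beta, immediate early, cell cycle and metabolic lists passed in the fit of all libraries. Over all tested genes 20.6% had both 84 h libraries higher and 21.4% both lower, and several of the counts below lie near these shares. In the FGF and ERK feedback list 10 of 18 genes had both libraries lower and 3 had both higher (median -0.39). Spry2 was at 172 and 189 CPM and then at 97.3 and 122 CPM (adjusted p = 0.617), Fgfr1, an FGF receptor gene, at 134 and 152 CPM and then at 98.6 and 122 CPM, and Ccnd1, a G1 cyclin gene, at 316 and 342 CPM and then at 274 and 307 CPM. Its relative Ccnd2 was at 596 and 650 CPM and then at 1039 and 974 CPM (adjusted p = 0.119, and 0.0004 in the fit of the 2i course alone). In that fit 1 gene each of the FGF and ERK (Spry2), G2 and mitosis (Birc5) and p53 lists passed with lower values at 84 h. So did 2 genes each of the glycolysis and amino acid response lists. With higher values at 84 h 2 immediate early genes, Jun and Egr2, and 1 Wnt gene passed. Egr2 is also on the hindbrain list, so it is counted in both. In the Wnt list 6 of 21 genes had both libraries higher and 3 lower, and in the BMP and TGF-beta list 3 and 2 of 16. The immediate early genes stood at 3 higher and 1 lower of 16, among them Jun at 63.3 and 71.9 CPM and then 162 and 101 CPM. The medians were -0.06 for 20 S phase genes, -0.02 for 20 genes of G2 and mitosis and -0.06 for 24 ribosomal protein genes. The mitosis gene Top2a was at 1028 and 926 CPM and then at 1035 and 1099 CPM. Cholesterol synthesis genes had both libraries lower in 11 of 23 and higher in none (median -0.19), and amino acid response genes lower in 10 and higher in 3 of 20 (median -0.23), among them Atf4 at 881 and 907 CPM and then 723 and 624 CPM. The p53 list stood at 9 lower and 1 higher of 17 and glycolysis at 8 lower and 3 higher of 23. The LIN28 and let-7 list stood at 1 lower and 5 higher of 12, cell cycle exit at 7 and 4 of 17, the nuclear genes of the respiratory chain at 6 and 0 of 21 and the mitochondrial ones at 3 and 2 of 11.

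Over the whole 2i course most of the called genes ended at an extreme. Among the 10 that rose, 9 had both 84 h libraries above all 14 other libraries of the course, against 6.19% of all tested genes, with Hist1h1e as the exception. Among the 8 that fell, 7 had both below all 14, against 5.68%, with Arl4c as the exception. The genes were called on the same 84 h libraries, so these counts are a description. Hes5 was at or below 4.67 CPM in every 2i course library up to 48 h. Crabp1 went from 29.3 and 22 CPM at 60 h to 286 and 338 CPM at 72 h, and Nr2f2 from 7.54 and 4.09 CPM to 43.1 and 47.1 CPM, before the step described here. Several of the falling genes had peaked early in the course: Dnmt3b at 2072 and 2048 CPM at 36 h, L1td1 at 1702 and 1965 CPM at 12 h, Cdh1 at 1038 and 1034 CPM at 36 h and Esrp1 at 79.0 and 89.0 CPM at 36 h. Arl4c had its highest mean at 72 h, and Rpp40 stood at 17.8 and 22.5 CPM at 60 h, below its level at 72 h.

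**Figure D5:**
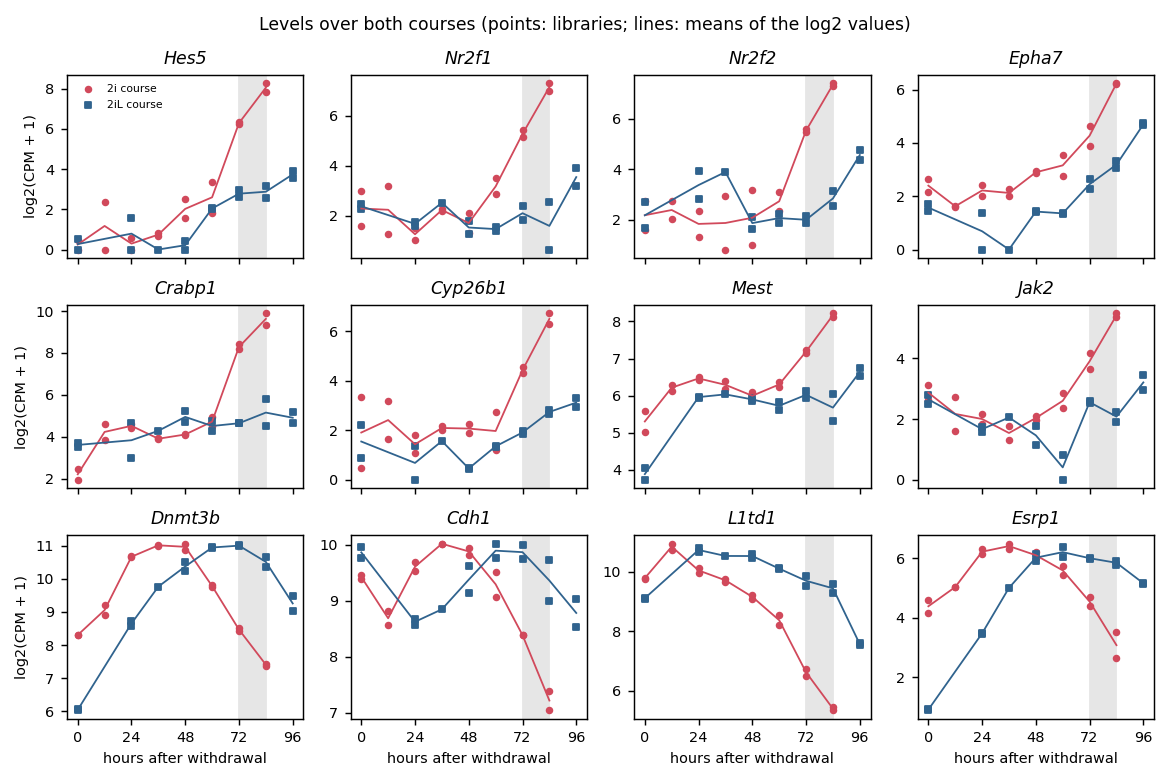
Levels as log2(CPM + 1) of 12 of the called genes against hours after withdrawal, with circles for the 2i course, squares for the 2iL course, lines through the means of the log2 values and the step from 72 to 84 h shaded. The 2iL 36 h library of 7298 counts is not drawn. Genes such as Hes5 and Crabp1 are low until 60 h of the 2i course and climb at its last 2 times, while the 2iL course stays lower to 96 h.

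The 2 differences of steps were tested to see where this step differed from the one before it and from the same step of the 2iL course. Against the step from 60 to 72 h, with which it shares the 72 h libraries, no gene passed in edgeR or in DESeq2 (280 higher and 317 lower at an unadjusted p under 0.05 in edgeR). The smallest p belonged to Otx2, whose difference between steps was 2.76 ± 0.55 (adjusted p = 0.133), with the values given above. Crabp1 differed by -2.23 ± 0.46 (adjusted p = 0.133). Efnb1, an ephrin ligand gene, was at 42.6 and 46.1 CPM at 60 h, at 146 and 134 CPM at 72 h and at 106 and 120 CPM at 84 h, a difference of -1.97 ± 0.41 (adjusted p = 0.133). Rpp40 differed by -1.88 ± 0.44 and Hist1h1e by 1.64 ± 0.39 (adjusted p = 0.394 for both). In the fit of the 2i course alone 17 genes passed this difference, 3 with the change more positive in the later step and 14 with it more negative. Among them were Crabp1, Efnb1, Otx2, Hist1h1e and Egr2, the last at -2.33 (adjusted p = 0.0137 in that fit).

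The same 12 h in the 2iL course gave 12 called genes (0.102%), 3 up and 9 down, in libraries that the 2i step does not use, and none of them was among the 18. This count rests on single libraries: it was 728 without replicate 1 of 2iL 84 h, leaving the one that stands apart, 3 without replicate 2 of 2iL 84 h and 1 without replicate 2 of 2iL 72 h. Fbxo15 passed there, at -1.48 (adjusted p = 0.0201 in edgeR), without the libraries that stand apart, and Fbxo15, Cdh1 and Crabp1 passed without replicate 1 of 2iL 84 h, in the direction of the 2i step. Sox1 rose there by 2.02 ± 0.30 (edgeR adjusted p = 0.0006), while in the 2i course, where it was at 71.4 and 62.4 CPM by 60 h, it did not pass, and its difference between the courses was -1.72 (adjusted p = 0.0883). The difference between the courses did not pass for any gene in edgeR or DESeq2 (278 higher and 477 lower at an unadjusted p under 0.05 in edgeR). Its smallest p belonged to Sema3e, a guidance ligand gene at 31 and 32.5 CPM and then 14.3 and 13.3 CPM in the 2i course, and at 27.2 and 21.5 CPM and then 44.2 and 38.9 CPM in the 2iL course, a difference of -1.96 ± 0.37 (adjusted p = 0.0768). Pgap1 (-1.35 ± 0.27), Cxxc5 (-1.47 ± 0.30) and Trib3 (-1.95 ± 0.40) had the same adjusted p, and Prom1 (-1.23 ± 0.26) had 0.0883. Without the libraries that stand apart 12 genes passed, 1 higher and 11 lower in the 2i course, among them Sema3e, Pgap1, Trib3 and Prom1. Between 2iL 84 and 96 h, a comparison added after the data were seen, 457 genes passed (3.89%), among them 6 of the 18, each in the direction of the 2i step: Epha7 at 1.61, Nr2f1 at 2.06, Nr2f2 at 1.87, Mest at 0.94, L1td1 at -1.89 and Dnmt3b at -1.24. Without the libraries that stand apart L1td1, Dnmt3b and Nr2f2 passed there, while Epha7 (adjusted p = 0.0547 in edgeR), Mest (0.0717) and Nr2f1 (0.137) did not. At 2iL 96 h Hes5 stood at 14.2 and 10.8 CPM and Crabp1 at 35.1 and 23.9 CPM, below their levels at 2i 72 h.

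Markers of other cell types were measured beside these results, and no gene of their 7 lists passed. Summed CPM in the 72 h and 84 h libraries was 72.2 and 83.4 against 62.3 and 77.4 for neural crest, 103 and 84.2 against 70.7 and 65.8 for primitive streak and mesoderm, and 106 and 105 against 96.0 and 97.8 for glia. Endoderm markers summed to 687 and 692 against 787 and 737, most of it Sparc, a gene of many cell types, with Sox7, Afp, Ttr and Apoa1 at 0. Surface ectoderm and trophectoderm markers summed to 46.2 and 68.8 against 77.9 and 68.0, with Krt5 and Krt14 at 0. Fibroblast markers summed to 122 and 113 against 156 and 123, and germline and 2-cell-like markers to 31 and 38.6 against 22.7 and 23.2, with Dazl and Zscan4d at 0. Sox1 and Pax6, markers of neuroectoderm, were counted in all 4 libraries, and so was Pou5f1.

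The 4 libraries held 1403962 and 1194380 counts at 72 h and 1358567 and 1760108 at 84 h, and the others 1122648 to 3438514 except for a 2iL 36 h library of 7298. Gm42418, a transcript that overlaps ribosomal RNA sequence, took 12.5% and 16% of counts at 72 h and 14.5% and 23.6% at 84 h, with the largest share in 2i 84 h replicate 2. Its part in the results was not tested. Ribosomal protein genes took 7.97%, 8.28%, 7.70% and 6.66%.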

How the data were processed

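RNA was measured in 32 libraries, 2 for each of 16 groups, made from poly(A) RNA by a 3' digital expression method (NEGEDIA Digital mRNAseq, per the labels' protocols). The authors deposited whole-number counts of uniquely aligned reads per gene for each library, and a table of CPM that differs from the scaled counts by at most 4.7e-10. Per the submitters' processing notes the tools were HTSeq, STAR 2.6.0a and bcl2fastq with build mm10, and the annotation is not given in the sources used here. Of 31053 gene IDs GENCODE M21 named 31011. The reads in 5 summary lines, among them reads outside genes and ambiguous reads, stayed out of library sizes. Reads outside genes and ambiguous reads together were 49.3% to 55.6% of uniquely aligned reads in the 4 libraries. 3' reads give no transcript length, so levels are not compared between genes.

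Groups and replicate numbers came from the labels. Counts were fitted in edgeR 4.0.16 (R 4.3.3) with TMM factors, filterByExpr (11761 genes), a coefficient per group over all 32 libraries (16 residual degrees of freedom) and the quasi-likelihood test. SE is the size of the log2 fold change divided by the square root of F. The words rose and fell are kept for an adjusted p under 0.05. Alternatives were DESeq2 1.42.0, RLE factors, no filter, a replicate block, fits of fewer libraries and leaving out single libraries. Scripts were tested on simulated data. Replicate pairs differed by more than sampling noise, so none was counted as 1 sample.

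Genes named are the 15 largest rises and falls that passed with a mean log2 CPM of at least 3 and groups that do not overlap (17 qualified), list members that passed with examples, the 3 highest members of lists with few calls, and the 5 smallest p of each difference. The members and lists were chosen with earlier results of these data known.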

Additional observations from a re-analysis of the deposited data

Results flagged for a closer look

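Reads that were assigned to no single gene (outside annotated genes, or ambiguous between genes) were used in no comparison. They made up 54.7% of uniquely aligned reads on average in the 2i 84 h libraries (53.8% and 55.6%). This was above the 2i libraries before withdrawal (30.9% and 46.4%), which serve as controls. The 2iL libraries before withdrawal stood at 47.0% and 41.2%. The share was 44.7% and 44.8% at 60 h and 49.3% and 52.0% at 72 h of the 2i course, and 54.0% and 50.4% at 96 h of the 2iL course.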

How the results depend on the processing

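For the step from 72 to 84 h the 10 rises and 8 falls became 17 and 18 without a filter, 50 and 51 without the 4 libraries that stand apart, 52 and 72 without these and the shallow library (added after seeing the data), 65 and 69 in a fit of the 4 libraries alone, 48 and 54 in a fit of the 2i course alone, and 3 and 0 in DESeq2. With 1 library left out they ranged from 0 to 5 rises and from 0 to 1 fall. No called gene changed sign under any alternative run. The calls kept outside the left-out libraries were all 18 in the fits with fewer libraries, 16 with RLE factors and 16 without a filter (Arl4c and Rpp40 lost), and 3 in DESeq2. The difference from the preceding step went from 0 calls to 2 without a filter, 1 without the shallow library, 14 without the libraries that stand apart, 18 without both and 17 in the 2i course alone. The difference between courses went from 0 to 15, 12 and 14 without a filter, without the libraries that stand apart and without both, and ranged from 0 to 8 with 1 library left out (8 without 2iL 84 h replicate 1). The 2iL step from 72 to 84 h went from 12 calls to 237 without a filter, 35 without the libraries that stand apart, 41 without both and 3 in DESeq2, and ranged from 1 to 728 with 1 library left out (728 without 2iL 84 h replicate 1). The 2iL step from 84 to 96 h went from 457 to 298 without the libraries that stand apart and 96 in DESeq2, and ranged from 196 to 626. The cause was not tested. RLE factors moved the median of all genes from -0.002 to 0.03, and the 2iL step from 84 to 96 h from 220 up and 237 down to 351 and 136.

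The labels give the groups the same replicate numbers, but the deviations of same-numbered libraries at 72 and 84 h correlated at 0.022 over 8866 genes, so the numbers are taken as names. With a replicate block 10 genes rose and 7 fell (Arl4c lost, adjusted p = 0.0522), the 2iL steps had 13 and 432 calls and both differences had 0. Depth limits the Hox genes and Fbxo15, whose values rest on few counts.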
